A study of Mus musculus with 8 samples.

Results

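The Clca genes encode the calcium-activated chloride channel regulators, a family of secreted or membrane-anchored metalloproteases that cut themselves and modulate chloride currents through other proteins. The probes were chosen by their name: every probe whose gene name in the scanner files begins with Clca, which gave 7 probes of 6 genes among 55669 probes and 34820 gene names. No measured value decided membership, but the family was put forward with values of the same comparisons known. Its own differences are therefore given as a description, with per-array values and standard errors. Where the number of Clca probes past the threshold of the fit over all probes is given, it describes where they fall in that fit and is no independent test of the family.

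Gene expression was measured with 1-colour Agilent arrays in 8 RNA pools from mice of mixed C57BL/6 and 129 background. Medullary thymic epithelial cells (mTEC), the thymic cells that display tissue-restricted genes to developing T cells, were sorted as live CD45- Epcam+ UEA1+ cells with high CD80 and MHCII from pools of 4 to 6 thymi, 3 pools of Cdx1+/+ and 3 of Cdx1-/- mice. Small intestine epithelial cells (SIEC) were sorted as live CD45- Epcam+ cells from pools of 3 mice, and 1 array labelled Cdx1+/+ and 1 labelled Cdx1-/- were analysed here. Cdx1 is a homeobox gene whose product acts in the gut lining, and the comparison asks which ectopically expressed genes in mTEC differ without it. The labels name no Cre or conditional allele. The part of Cdx1 that was deleted and the ages of the mice are not given here.

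Levels are log2 of the processed signal minus the 75th percentile of the array, and a fold is 2 to the power of a log2 difference. Levels of different probes are not compared, since probes differ in how well they bind. A probe was called when the adjusted p of limma's moderated test, with Benjamini-Hochberg adjustment over all probes tested, was under 0.05. The share of spots well above background was 58.6 to 63.5% on the mTEC arrays and 44.6 to 46.3% on the SIEC arrays. The single Cdx1 probe read 5.88, 5.90 and 5.96 in the Cdx1+/+ mTEC pools and 4.80, 4.98 and 5.00 in the Cdx1-/- pools (log2 difference -0.99, SE 0.09, limma adjusted p = 0.00509). In SIEC it read 4.87 where the label is Cdx1+/+ and 6.48 where it is Cdx1-/-, which goes against the label. Whether this probe lies in the deleted part is unknown here. In mTEC it followed the genotype labels, with 0.504 of the Cdx1+/+ signal left in Cdx1-/- cells. Whether the SIEC labels are exchanged was not tested, so the SIEC arrays are named below by their labels. Of 13 mature mTEC markers, 12 were well above background on all 6 mTEC arrays, and 6 were on both SIEC arrays. Markers of other cells were also well above background on all 6 mTEC arrays. They were 9 of 10 for thymocytes and 8 of 9 for dendritic cells and macrophages. For mesenchyme and endothelium they were 7 of 9, and for cortical thymic epithelium 5 of 7. The part of such cells in the Clca values was not tested. All 10 intestinal epithelium markers were well above background on both SIEC arrays, where Aire and Fezf2 were not.

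In the mouse the family forms a cluster on chromosome 3, and its members are known from different epithelia. The goblet cell product gob-5 is a secreted part of intestinal and airway mucus, other members are made by enterocytes, and one is made by keratinocytes of stratified epithelium. The numbering has changed since the arrays were designed, so a name in the files can denote another gene today. By accession, the files' Clca1 is now Clca3a1, Clca2 is Clca3a2, Clca4 is Clca3b, Clca6 is Clca4a, Clca3 is Clca1 (gob-5) and Clca5 is Clca2. The names of the files are kept below. One Clca1 probe (A_55_P2039694) carries only a transcript accession and was placed with Clca1 by its name and position. AI747448, now Clca4b, lies inside the cluster and is described beside the family, of which it is no member by name.

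All 7 probes lie on the minus strand of chromosome 3, within 341 kb (build mm9, positions from the files). In order along the chromosome, the Clca1 probes lie at chr3:144392981-144393040 and chr3:144393450-144393509. The Clca2 probe lies at chr3:144460509-144460568 and the Clca4 probe at chr3:144485743-144485802. Clca6 was read at chr3:144615506-144615565, Clca3 at chr3:144667558-144667617 and Clca5 at chr3:144733937-144733996. The exon or UTR of each probe is not given in the files. Aligned to each other, the 60-base probes were 21.7 to 49.2% identical, so no pair of them shares most of its bases. The 2 probes of Clca1 itself were 42.9% identical. How well a probe binds transcripts of other family members was not examined.

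RefSeq promoter sequences (GRCm38.p6) of Clca1 and Clca4 are shown because these genes of the cluster differ in how their signal compares between genotypes. Each run gives the 250 bases before the annotated start, 5′ to 3′ on the minus strand of chromosome 3. Capitals mark TTTATG, read here on the opposite strand as CATAAA, a form of the AT-rich sequence that Cdx factors are known to bind.
Clca1 promoter: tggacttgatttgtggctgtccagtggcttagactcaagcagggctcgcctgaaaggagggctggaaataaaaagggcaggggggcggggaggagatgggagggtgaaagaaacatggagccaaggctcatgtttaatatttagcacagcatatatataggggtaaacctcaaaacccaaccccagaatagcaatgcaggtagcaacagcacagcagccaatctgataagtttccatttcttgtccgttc
Clca4 promoter: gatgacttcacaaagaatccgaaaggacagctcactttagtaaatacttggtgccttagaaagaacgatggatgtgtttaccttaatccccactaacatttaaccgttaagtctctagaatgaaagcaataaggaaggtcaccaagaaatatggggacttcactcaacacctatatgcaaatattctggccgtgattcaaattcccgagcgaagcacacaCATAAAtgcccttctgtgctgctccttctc

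The windows searched run from 250 bases before to 50 bases after the start, so they span chr3:144760928-144761227 for Clca1 and chr3:144849253-144849552 for Clca4 (GRCm38.p6). TTTATG and TTTATA were searched on both strands, and TTTATA overlaps the TATA box. TTTATG was found once in Clca4, 30 bases before the start. Whether that match is part of a TATA-like sequence or a Cdx site was not tested. Neither sequence was found in the windows of Clca1 and Clca5, and AI747448 held 1 TTTATG and 2 TTTATA. Other AT-rich forms were not searched, and the Clca1 run shown also holds AT-rich stretches. A window without a match therefore lacks these 2 forms only. Of all 32851 promoter windows of the same length, 11.9% held TTTATG, 13.6% TTTATA and 22.8% either. The Clca1 and Clca4 windows were 41.7% identical. A match is a description of letters and no evidence of binding.

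In mTEC, Clca4 had the widest genotype difference of the 6 probes measured: its signal was 3.89-fold lower in Cdx1-/- than in Cdx1+/+ cells. Clca1, Clca2 and Clca6 were lower by 1.21- to 1.45-fold, Clca3 was level between the genotypes, and Clca5 was not well above background on any array. Of the 7 probes 6 passed the filter on dim probes, and 1 of them was called, lower in Cdx1-/-. Over all 33520 probes tested 10.5% were called in either direction and 5.3% were called lower. The genotypes did not overlap for 4 of the 6 probes, all lower in Cdx1-/-, where 36.4% of all probes tested did not overlap in either direction. The median log2 difference of the 6 was -0.338, and that of all probes tested was 0.004. With 3 pools a genotype these values describe the spread between pools. In bulk samples, fewer cells that express a gene and less RNA per cell cannot be told apart. Markers of other epithelia moved between the genotypes as well: of 10 intestinal epithelium markers 6 fell, with summed signals of 85.1 to 91.9 in Cdx1+/+ and 57.9 to 58.8 in Cdx1-/- mTEC, and of 7 keratinised mTEC markers 4 rose, with sums of 94.7 to 103 and 149 to 156. None of these markers was below background on all mTEC arrays, and their part in the Clca values was not tested.

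**Figure D1:**
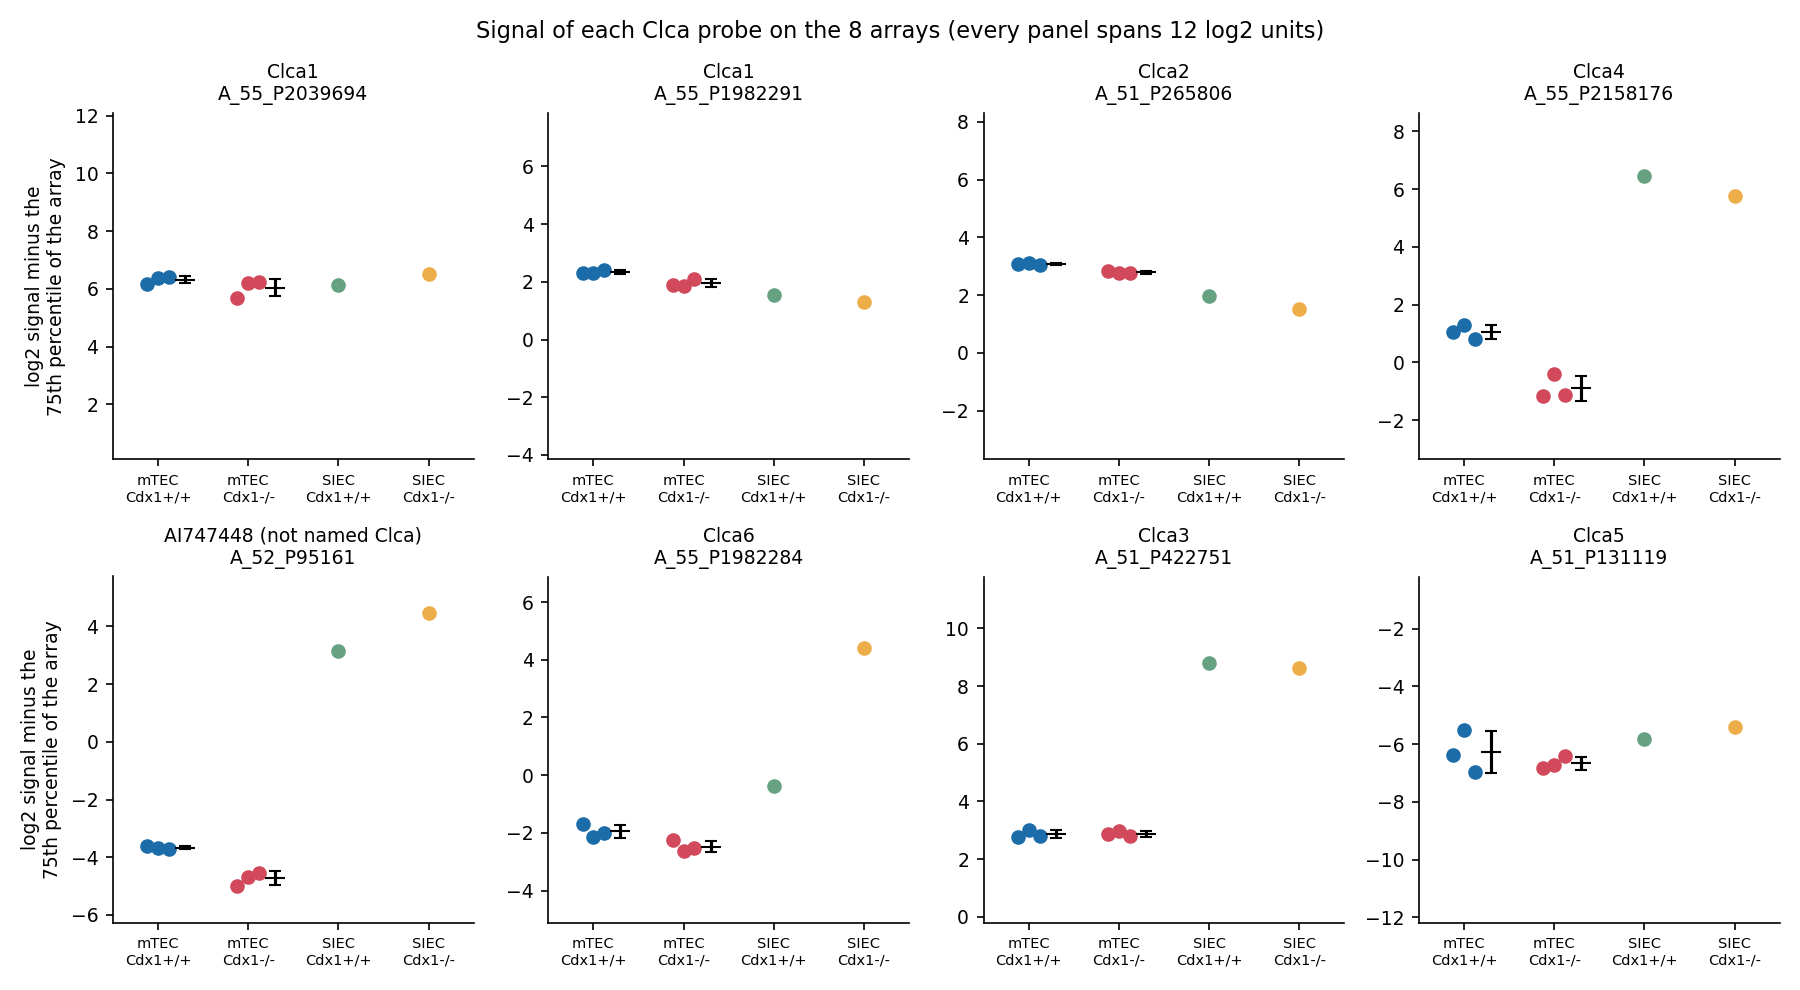
Each panel plots 1 probe as log2 signal minus the 75th percentile of the array for the 3 Cdx1+/+ mTEC, 3 Cdx1-/- mTEC and 2 SIEC arrays, 1 point an array; black bars are the mean and SD of the mTEC groups. Clca4 separates both by genotype in mTEC and by tissue, Clca3 by tissue, and Clca6 differs most between the SIEC arrays.

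Clca4, first cloned from tissue rich in smooth muscle, read 1.06, 1.28 and 0.81 in the Cdx1+/+ mTEC pools and -1.16, -0.42 and -1.14 in the Cdx1-/- pools. Every Cdx1+/+ array lay more than a unit above every Cdx1-/- array. The means were 1.05 ± 0.23 and -0.91 ± 0.42 (SD, n = 3 each). Cdx1-/- minus Cdx1+/+ was thus -1.96 on the log2 scale (SE 0.23). The probe was well above background on all 8 arrays, so both groups are measured levels. Within slide 1, which holds 5 of the 6 mTEC arrays, the difference was -1.83 (SE 0.25). From high to low, the order was SIEC labelled Cdx1+/+ (6.44), SIEC labelled Cdx1-/- (5.78), Cdx1+/+ mTEC and Cdx1-/- mTEC. The mTEC groups lay apart by more than their SDs, and the order of the SIEC arrays has no spread to be set against.

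Clca6, an enterocyte gene, read -1.70, -2.15 and -1.99 in the Cdx1+/+ mTEC pools and -2.25, -2.64 and -2.54 in the Cdx1-/- pools. The genotypes did not overlap but lay close, the lowest Cdx1+/+ and highest Cdx1-/- values being -2.15 and -2.25. The log2 difference was -0.53 (SE 0.16), and the probe was not called. Same-numbered mTEC pools deviated together. With the replicate number as a block, 2 Clca probes were called, Clca4 and Clca6, the latter with a standard error of 0.076. The main fit had no such block. Which Clca probes besides Clca4 were called moved with the setting: normexp background correction gave 2, quantile normalization 3 and a stricter filter 2.

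Both Clca1 probes, of a gene known from endothelium and several epithelia, were lower in Cdx1-/- mTEC by their means. A_55_P2039694 read 6.18, 6.37 and 6.41 in Cdx1+/+ and 5.69, 6.19 and 6.24 in Cdx1-/- mTEC (-0.28, SE 0.17), and the genotypes overlapped. A_55_P1982291 read 2.32, 2.30 and 2.40 in Cdx1+/+ and 1.90, 1.86 and 2.11 in Cdx1-/- mTEC (-0.38, SE 0.10), and they did not. Neither was called, so the probes of the gene differ in overlap and not in direction. Within slide 1 the first probe's difference was -0.10 (SE 0.11), without the Cdx1-/- pool on slide 2 that read 5.69.

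Clca2, known from the mammary gland, read 3.09, 3.11 and 3.04 in the Cdx1+/+ mTEC pools and 2.83, 2.78 and 2.75 in the Cdx1-/- pools. The groups were tight and did not overlap, with means of 3.08 ± 0.04 and 2.79 ± 0.04 (SD, n = 3 each) and a log2 difference of -0.29 (SE 0.08). The probe was not called.

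Clca3, the goblet cell gene gob-5, read 2.78, 3.02 and 2.80 in Cdx1+/+ mTEC and 2.86, 2.98 and 2.79 in Cdx1-/- mTEC. The genotypes interleaved, with means of 2.87 ± 0.13 and 2.88 ± 0.10 (SD, n = 3 each) and a log2 difference of 0.01 (SE 0.11). Clca5, the keratinocyte gene, read between -6.96 and -5.42 over the 8 arrays, not well above background on any, and was not tested.

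AI747448, an enterocyte gene of the same cluster, read -3.61, -3.67 and -3.72 in the Cdx1+/+ mTEC pools and -5.00, -4.67 and -4.53 in the Cdx1-/- pools. Cdx1-/- minus Cdx1+/+ was -1.06 (SE 0.13), and the groups did not overlap. It was well above background on 3 of 3 Cdx1+/+ and 1 of 3 Cdx1-/- arrays, so it entered the fit through the group where it is high, and no test is drawn from it. On the SIEC arrays it read 3.14 where labelled Cdx1+/+ and 4.46 where labelled Cdx1-/-. Both lay far above the mTEC arrays.

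**Figure D2:**
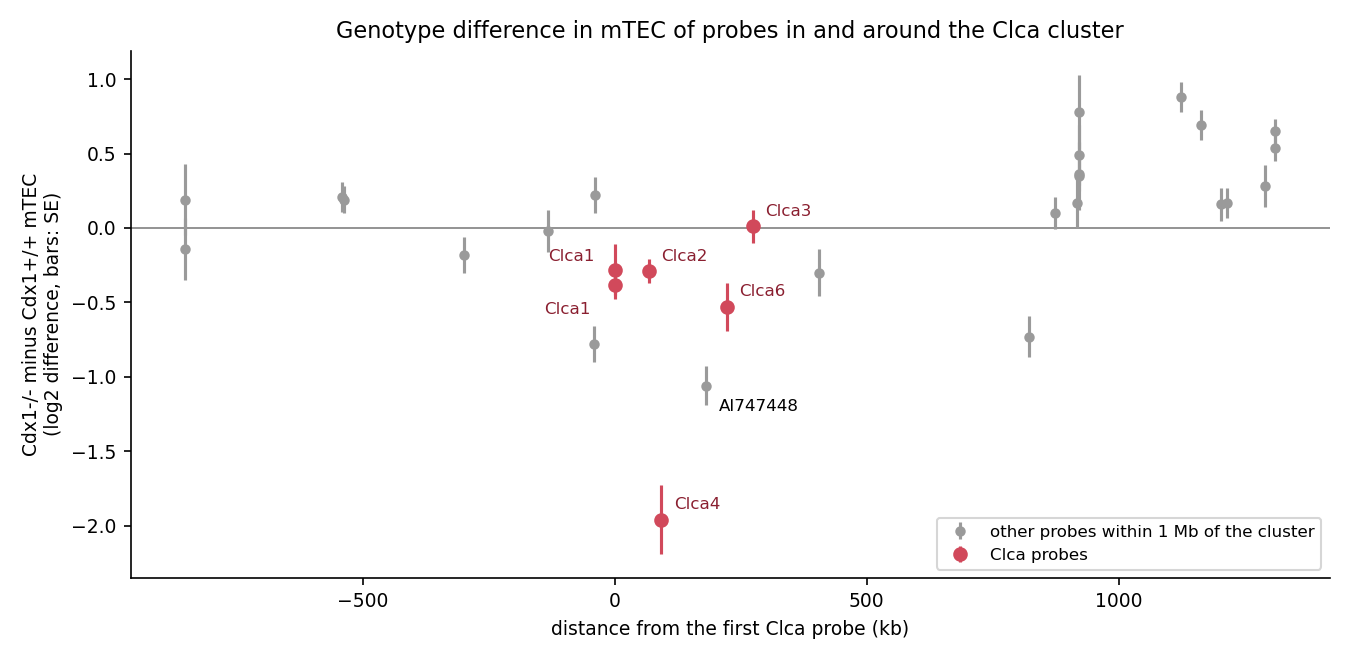
The log2 difference between Cdx1-/- and Cdx1+/+ mTEC (vertical axis, bars SE) is plotted against the distance in kb from the first Clca probe, for Clca probes in red and other tested probes in the cluster or within 1 Mb of it in grey. Clca4 at -1.96 and AI747448 at -1.06 lie lowest, and the other Clca probes lie between -0.53 and 0.01.

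In the cluster and within 1 Mb of it, 44 other probes were placed and 24 were tested in mTEC. Of these, 3 were called lower and 4 higher in Cdx1-/- cells, and the differences ran from -1.06 to 0.88 with a median of 0.19. The 4 called higher were all probes of Ddah1 and Wdr63, so they are not separate genes. Among all probes tested in mTEC, 10.5% were called in either direction. Ddah1, which breaks down methylated arginines, rose by 0.88 (limma adjusted p = 0.00794) and Wdr63, an axonemal dynein chain, rose by 0.65 (limma adjusted p = 0.00875). A Sh3glb1 probe of low signal fell by 0.78 on the log2 scale (limma adjusted p = 0.0153), while another probe of the gene, an endophilin, gave 0.22 and did not pass. The cluster thus sits among neighbours that moved in both directions. AI747448 is 1 of the 3 called lower, with the limit given above.

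Between tissues, Clca3, Clca4 and Clca6 were higher in SIEC and Clca2 was higher in mTEC. Of the 6 probes tested 5 were called, 3 higher in SIEC and 2 higher in mTEC, and the tissues did not overlap for the same number, 5 of 6. Over all 35226 probes tested 82.2% were called and 80.7% did not overlap. The median log2 difference mTEC minus SIEC of all probes was -0.46. It was -0.21 with quantile normalization, -0.61 with normexp and -0.93 in the authors' table. Of the probes called, 39.8% were higher in mTEC, and 26.0% after normexp. Tissue and sort gate differ together, and 2 SIEC arrays carry the comparison.

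Clca3 read 8.81 and 8.63 on the SIEC arrays and 2.78 to 3.02 on the 6 mTEC arrays. It was 57.5-fold higher in SIEC, a log2 difference mTEC minus SIEC of -5.85 (SE 0.12), or -5.39 relative to the median of all probes. On slide 2 alone, the SIEC mean lay 5.86 above the 1 mTEC array. The mucus genes that accompany gob-5 in goblet cells were in mTEC as well: all 7 goblet cell markers were well above background on the 6 mTEC arrays, with a summed linear signal of 304 to 401 in Cdx1+/+ mTEC, 273 to 343 in Cdx1-/- mTEC and 2740 and 3320 on the SIEC arrays. Most of the mTEC sum is Fcgbp, which was 1.57-fold higher in SIEC. The other markers were higher in SIEC by 10-fold (Spdef) to 193-fold (Agr2), so the sums do not give the difference of each gene. The part of these markers in the Clca3 signal was not tested.

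Clca4 was 65.9-fold higher in SIEC (mTEC minus SIEC -6.04, SE 0.33, and -5.59 relative to the median of all probes). With slide as a block the difference was -6.53. On slide 2, the SIEC mean lay 7.28 above the mTEC array, which is a Cdx1-/- array. No mTEC array came within 4 log2 units of a SIEC array. For Clca6, mTEC minus SIEC was -4.23 (SE 0.99), and 1 array decided the size. It was -6.89 without the SIEC array labelled Cdx1+/+ and -1.58 without the one labelled Cdx1-/-.

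Clca2 was 2.27-fold higher in mTEC (mTEC minus SIEC 1.18, SE 0.10), with 2.75 to 3.11 on the mTEC arrays and 1.98 and 1.51 on the SIEC arrays. The Clca1 probes disagreed between tissues. A_55_P1982291 was higher in mTEC by 0.73 (SE 0.11), with 1.55 and 1.30 on the SIEC arrays, and by 0.25 in the authors' table, where it was not called. A_55_P2039694 overlapped between tissues (-0.14, SE 0.21), with 6.13 and 6.50 on the SIEC arrays, and its sign and call depended on the processing: quantile normalization gave 0.91, the authors' table -0.61 and slide as a block -0.65, all called. Relative to the median of all probes it was 0.32 in the main scaling and 1.12 after quantile normalization.

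**Figure D3:**
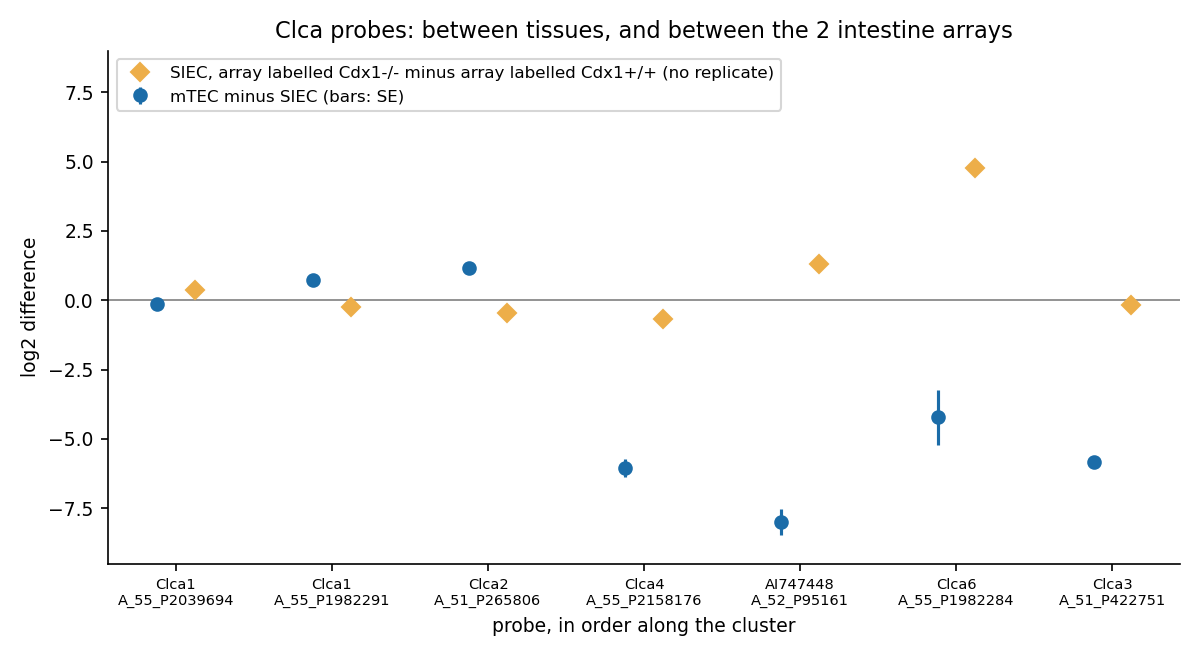
For each tested Clca probe and AI747448, blue points give the log2 difference mTEC minus SIEC with its SE and yellow diamonds the log2 difference between the SIEC arrays labelled Cdx1-/- and Cdx1+/+, which has no replicate. Clca4, Clca3 and AI747448 lie between -8.00 and -5.85 for tissue (AI747448 was well above background on 4 of 6 mTEC arrays), and Clca6 lies at 4.78 for the SIEC pair.

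The SIEC arrays, 1 a label and without a replicate check, differed most at Clca6. Its level was -0.36 under the Cdx1+/+ label and 4.41 under the Cdx1-/- label, 27.4-fold apart. Of the 6 Clca probes seen in intestine it alone was at least 2-fold apart, where 9.28% of all probes seen were. The others were close between the arrays: 0.37 and -0.25 for the Clca1 probes, -0.47 for Clca2, -0.66 for Clca4 and -0.18 for Clca3, each as labelled Cdx1-/- minus labelled Cdx1+/+. Next to Clca6, AI747448 was 1.32 higher on the array labelled Cdx1-/-. The pseudogene Gm6289 of the cluster was 4.16 higher there, and was well above background on that array only.

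The SIEC arrays also differed in other respects, whose part in the Clca6 value was not tested. Of the 7 thymocyte markers seen in intestine, 6 were at least 2-fold higher on the array labelled Cdx1-/-, and the summed signal of the list was 12.7 and 35.5 on the arrays labelled Cdx1+/+ and Cdx1-/-. Rag1, Rag2 and Ptcra were not well above background on either. For dendritic cells and macrophages 1 of 6 was at least 2-fold higher, with sums of 35.6 and 69.6, and Mrc1, Adgre1 and Xcr1 were not well above background. Villus enterocyte genes were at least 2-fold higher for 5 of 18, with sums of 3200 and 5000. For mesenchyme and endothelium, 2 of 5 were at least 2-fold higher. Goblet cell markers differed by 2-fold for 0 of 7. Of the longer list of 26 goblet cell mucus genes, 1 did: Retnlb was 15.8-fold lower on the array labelled Cdx1-/-.

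The genotype values of the Clca probes were then set beside lists of genes of related function. Each list is to be read beside the shares over all probes tested in mTEC, 10.5% called and 5.3% called lower. Those shares count every probe, while a list takes the brightest tested probe of a gene. The villus enterocyte list shares most of the intestinal epithelium markers given above, and the stratified epithelium list holds all the keratinised mTEC markers. The changes of these lists and of those markers are therefore not separate results. Villus enterocyte genes were lower in Cdx1-/- mTEC: of 18 tested, 11 fell, none rose and 7 missed the threshold (median log2 difference -0.66). Sis, the sucrase-isomaltase of the brush border, fell by 1.86 on the log2 scale (limma adjusted p = 0.00153), Fabp1, a fatty acid binding protein, fell by 1.44 (limma adjusted p = 0.00233), Lgals4, an intestinal galectin, fell by 1.54 (limma adjusted p = 0.00293) and Apob, the lipoprotein of chylomicrons, fell by 1.45 (limma adjusted p = 0.00339). The values of Clca4 and AI747448 to set beside these are -1.96 and -1.06.

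Goblet cell mucus genes went in both directions: among the 25 tested, 5 fell and 3 rose, and 17 missed the threshold (median -0.17). Among the named genes, the metalloprotease Mep1a fell by 0.98 on the log2 scale (limma adjusted p = 0.00797), the trefoil peptide Tff3 fell by 0.58 (limma adjusted p = 0.0174) and the membrane mucin Muc13 fell by 1.31 (limma adjusted p = 0.0214). The calpain Capn9 rose by 0.46 (limma adjusted p = 0.0234). The count called was 8 in all, 4 within slide 1, and 1 to 4 when any 1 mTEC array was left out. Clca3, the goblet cell gene gob-5, had a difference of 0.01.

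Of 18 chloride and bicarbonate transport genes tested, 2 fell, 2 rose and 14 missed the threshold (median 0.24). The bicarbonate cotransporter Slc4a4 fell by 1.00 on the log2 scale (limma adjusted p = 0.00723) and the chloride channel Cftr fell by 0.80 (limma adjusted p = 0.0268). The anion exchanger Slc26a9 rose by 0.66 (limma adjusted p = 0.0104) and the anoctamin Ano9 rose by 0.65 (limma adjusted p = 0.0412). Ano1, the calcium-activated chloride channel that the family is known to modulate, gave 0.31 and did not pass (limma adjusted p = 0.109).

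Stratified epithelium genes, listed for Clca5, were higher in Cdx1-/- mTEC: of 21 tested, none fell, 7 rose and 14 missed the threshold (median 0.35). The protease inhibitor Spink5 rose by 1.11 (limma adjusted p = 0.00502), the cornified envelope protein Ivl rose by 0.72 (limma adjusted p = 0.00755), the keratin Krt10 rose by 1.07 (limma adjusted p = 0.0106) and Sbsn, suprabasin, rose by 0.69 (limma adjusted p = 0.0124). Without the third Cdx1+/+ pool 4 passed. Clca5 was not well above background beside them. Gob-5 is also known as a gene that interleukin-13 induces in airway epithelium. Of 13 type 2 cytokine response genes tested, Retnla fell by 0.52 on the log2 scale (limma adjusted p = 0.0330), the transcription factor Foxa2 rose by 0.62 (limma adjusted p = 0.0381) and 11 missed the threshold (median 0.10). With slide as a block or within slide 1, 0 of the list passed in limma, and 0 to 1 did without one array. The share called over all probes was 10.5%.

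**Figure D4:**
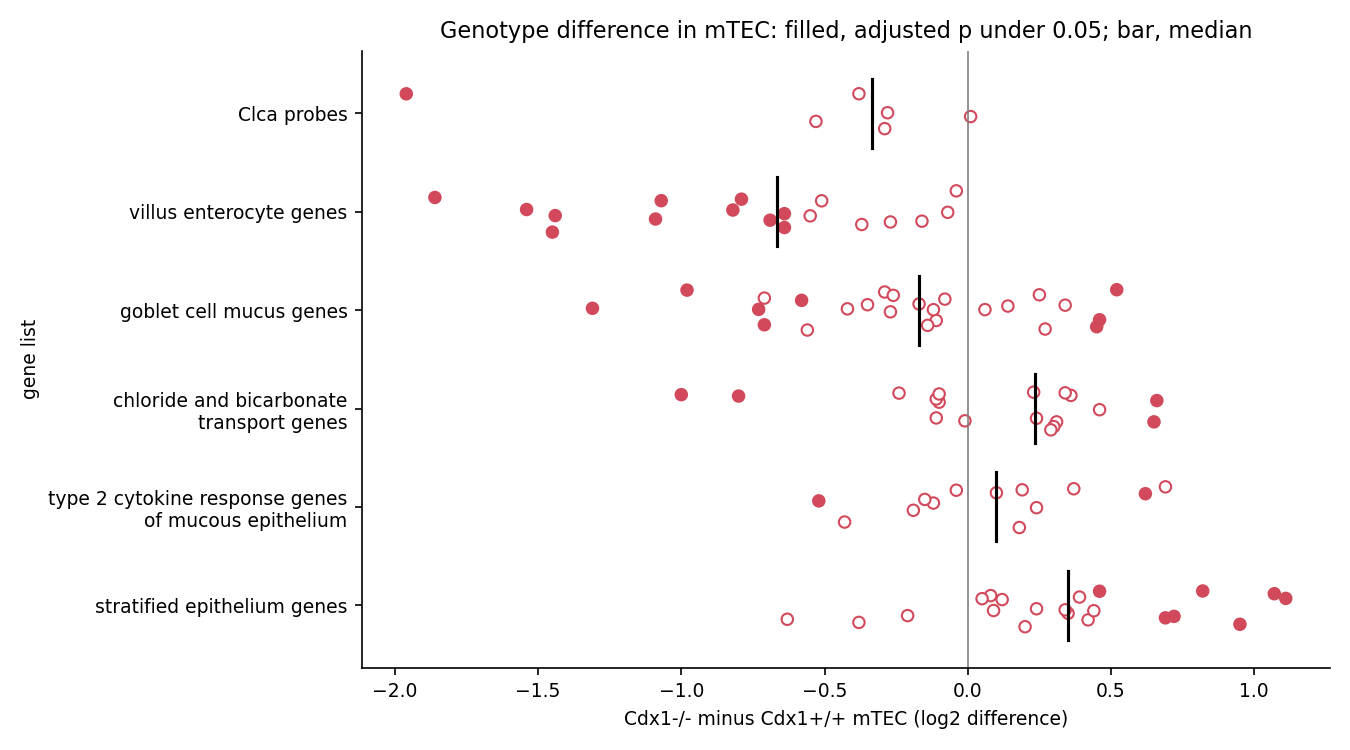
Each point is the log2 difference between Cdx1-/- and Cdx1+/+ mTEC of a Clca probe or of 1 gene of a list, filled where the adjusted p was under 0.05, with the median as a black bar and random vertical scatter. The median is -0.66 for villus enterocyte genes and 0.35 for stratified epithelium genes, and Clca4 lies lowest of all points.

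Genes whose pattern over the 8 arrays was most like each probe were taken by the smallest root mean square difference of mean-centred log2 signals. For Clca4 these were Ms4a18 (0.32), Tm4sf20 (0.33) and Lgals4 (0.37), whose own genotype differences in mTEC were -1.65, -2.14 and -1.50. For Clca3 they were Duoxa2 (0.14), Lrrc75a (0.16) and Il22ra1 (0.16). For Clca6 they were Pmp22 (0.53), Enpp3 (0.58) and Klrd1 (0.70), which read 2.32 to 2.99 higher on the SIEC array labelled Cdx1-/-. Likeness in these differences follows from the choice over the same 8 arrays and is no separate result. Closest to Clca2 were Hhat (0.07), Ces2g (0.08) and Kif21a (0.08). Closest to the Clca1 probes were Milr1 (0.04), Syp (0.07) and Srp54a (0.07) for A_55_P2039694 and Ccdc144b (0.08), Yjefn3 (0.09) and Angptl6 (0.10) for A_55_P1982291.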

How the data were processed

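The deposited scanner files hold linear intensity per spot, background-subtracted and detrended by the authors with Agilent Feature Extraction 10.7.3.1, per the file headers. The authors' deposited table of normalized intensity is the same signal times 1 constant an array. RNA was extracted and labelled by a service company, per the labels.

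From these files, 59305 non-control spots were read, outlier spots were left out, the log2 signal was set relative to the array's 75th percentile, and replicate spots were averaged into 55669 probes. Probes well above background on at least 2 of 3 arrays of a group, or on the array of a group of 1, were tested with limma 3.58.1 (R 4.3.3), by genotype over the 6 mTEC arrays and by tissue with genotype over all 8; SIEC arrays were not tested by genotype. The mTEC pools are separate, so p-values measure the spread between pools. Same-numbered mTEC arrays of the genotypes deviated together (correlations 0.295, 0.135 and 0.158), and differently numbered ones gave -0.205 to 0.032. The number, from the labels, may thus pair them. It was a block in an alternative fit and no term of the main fit. Slide 1 held 5 arrays and slide 2 held 3 (Cdx1-/- mTEC 1 and both SIEC arrays). The fit was tested on simulated data.

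The members and gene lists were chosen with earlier results of these data known. Named genes were every Clca probe, up to 4 of smallest p in each list and among neighbours within 1 Mb. The 3 most like each Clca probe were named as well. Ano1, Gm6289 and Retnlb were named after their values were seen. Lists take the brightest tested probe of a gene. Symbols came by accession from RefSeq (GRCm38.p6) for 27506 probes, and 28163 kept the file's name. Promoters of the family other than those of Clca1 and Clca4 are not shown here.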

Additional observations from a re-analysis of the deposited data

Results flagged for a closer look

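By the labels, Clca6 differed in opposite directions between cell types. All 3 Cdx1-/- mTEC arrays lay below the Cdx1+/+ arrays (log2 difference -0.53, not called), while the SIEC array labelled Cdx1-/- lay 4.78 above the one labelled Cdx1+/+. This difference between cell types was not tested, since each SIEC label has 1 array. The direction in SIEC rests on labels that the Cdx1 probe went against. The SIEC arrays also differed in thymocyte markers and villus enterocyte genes.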

How the results depend on the processing

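No called result reversed under the alternatives run. Clca1 probe A_55_P2039694, not called between tissues in the main fit (mTEC minus SIEC -0.14), was called at 0.91 with quantile normalization, at -0.61 in the authors' table and at -0.65 with slide as a block. The difference of Clca4 between genotypes in mTEC stayed between -2.20 and -1.76 and was called under all 15 of its alternatives. These 15 are not all distinct. Between the mTEC genotypes, slide as a block, within slide 1 and leaving out Cdx1-/- mTEC 1 give the same fit. The count of Clca probes called in mTEC was 1, and 2 with normexp background correction, 3 with quantile normalization, 2 with the strict filter and 2 with the replicate block; leaving out each array in turn gave 1 throughout (1 to 1). The replicate block changed no other call of a Clca probe. Of all probes, 3519 were called in mTEC, 1910 with normexp, 716 without the filter, 1768 with slide as a block or within slide 1, and 840 to 1768 without one array. Between tissues, 28947 probes were called, 43552 without the filter and 18353 with the strict one. Goblet cell mucus genes called went from 8 to 4 with slide as a block or within slide 1 and 1 without the filter, and 1 to 4 without one array. Type 2 response genes called went from 2 to 1 with normexp and 0 without the filter, with slide as a block or within slide 1, and 0 to 1 without one array. Without the filter, 2 chloride transport genes (4 with it) and 3 stratified epithelium genes (7 with it) were called; without one array these were 2 to 3 and 4 to 7. The causes were not tested. The number of arrays and, for Clca5, signal over background limit the precision. For the SIEC pair, Clca2 moved from -0.47 to -0.42 with normexp, -0.34 with quantile normalization and -0.69 in the authors' table, and Clca6 from 4.78 to 4.41 and 4.11 with normexp and quantile normalization. In the authors' table Clca1 probe A_55_P1982291 moved to -0.46 and Clca3 to -0.39.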
